A study of Mus musculus with 15 samples.

Results

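T cell costimulation and checkpoint genes encode the ligands and receptors that decide, besides antigen recognition, whether a T cell is activated or restrained. The 10 genes described here are the ligands Cd80, Cd86 and Cd274, the activating receptors Cd28 and Icos, and the inhibitory receptors Ctla4, Pdcd1, Lag3, Tigit and Havcr2. They were taken by gene name from a named list, and all 10 were found among the 32479 genes of the deposited expression table. All 10 also passed the filter on low counts that left 18136 genes for testing. They were measured by RNA sequencing of the mouse submandibular gland, a salivary gland, in 15 samples with 5 in each group. Glands of NOD/LTJ mice treated with SJQYD, which the labels do not spell out, form the SJQYD group. NOD/LTJ mice without treatment form the model group, and the strain is known for autoimmune inflammation of salivary glands and pancreas. ICR mice without treatment, from an outbred stock, form the control group. The labels give the genotype of all 3 groups as WT, name no age, dose, duration or vehicle, and do not say whether the samples came from separate mice, so p-values measure the spread between samples. The control mice are of another stock, so an effect of disease and one of strain cannot be told apart wherever they are the comparator.

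By textbook knowledge, Cd80 and Cd86 are carried by dendritic cells, macrophages and B cells and bind Cd28 on T cells, which lends the activating signal that accompanies antigen. Ctla4, carried by regulatory and activated T cells, binds the same ligands more tightly and withholds that signal. Cd274 encodes PD-L1, which many cell types show after interferon exposure, and it engages the receptor PD-1, encoded by Pdcd1, to restrain T cells. Lymphocytes gather around the ducts of salivary glands in Sjögren's syndrome, the disease named in the series title, and in NOD mice.

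Total counts per library ran from 39510018 to 68694263, yet the members were rare transcripts. Their counts ran from 0 to 426 per library, and 6 of the 150 values were 0. A count of 3, taken as the floor of detection for a library, corresponded to 0.029 to 0.084 CPM, the read count scaled to the TMM-adjusted library size. Such floors cover counting error only. All 12 genes of the submandibular gland list had a count above 0 in every library, and that list includes Bpifa2, a parotid product. Parotid products (Amy1, Bpifa2, Smr3a and Chia1) made up 6.5% of counts in SJQYD 1, 16% in model 3 and 4.17% in control 2, against at most 2.11% elsewhere. Xist stood at 1.01 CPM in SJQYD 3 and at 162 to 270 CPM in the other libraries. High endothelial and lymph node stroma transcripts also set 4 libraries apart. Glycam1, an adhesion ligand of high endothelial venules, stood at 29.1 CPM in the library SJQYD 3, 69.7 and 42.8 CPM in model 1 and model 5, and 15.3 CPM in control 2, against at most 4.12 CPM in the other libraries. The same 4 libraries held 35.9 to 105 CPM of Ccl21a, a chemokine that draws T cells, against 3.21 to 12.4 CPM elsewhere. The 8 genes of the lymph node list summed to 8.89 to 112 CPM in the SJQYD group, 21.7 to 229 CPM in the model group and 9.93 to 84.1 CPM in the control group, with up to 6 of the 8 at 0 in a control library.

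The genes lie at separate places in the genome except for 1 cluster. Coordinates in the deposited table equal those of the GRCm38 annotation for 10 of 10 members, although the submitters' processing notes name mm9. Cd28 (chromosome 1, 60716800 to 60773359), Ctla4 (60887000 to 60915832) and Icos (60977927 to 61000320) are neighbours on the plus strand. Pdcd1 lies on the minus strand of chromosome 1 (94038305 to 94052553), and Cd86 (36603869 to 36666081), Cd80 (38455561 to 38496335) and Tigit (43648867 to 43664146) lie on chromosome 16. Cd274 lies on chromosome 19 (29367455 to 29388095), Lag3 on chromosome 6 (124904361 to 124911705) and Havcr2 on chromosome 11 (46454935 to 46481255). The span of Ctla4 holds the ribosomal protein pseudogene Rpl18-ps1 on the same strand, which had 0.277 to 1.12 CPM, so that reads could be divided between them. Gm36043, antisense to Cd274, had at most 0.065 CPM.

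Promoter windows of 300 bases around the RefSeq start (GRCm38.p6) were read for 6 members, namely Ctla4, Pdcd1, Havcr2, Cd80, Tigit and Cd274, and the start that RefSeq gives Ctla4 lies inside the span above. The remaining members are Cd86, Cd28, Icos and Lag3. The windows of Cd274, the ligand with the larger fold change in the model glands, and Ctla4, the receptor that competes with Cd28, are shown on the plus strand, 5′ to 3′. They cover chr19:29367188-29367487 and chr1:60908775-60909074. Capitals mark matches to any of 4 motifs searched on both strands: the interferon response element (GAAA, any 2 bases, GAAA), the gamma-activated site TTCNNNGAA, the kB site (GGG, any 2 bases, TTTCC) and the NFAT core GGAAAA.
Cd274: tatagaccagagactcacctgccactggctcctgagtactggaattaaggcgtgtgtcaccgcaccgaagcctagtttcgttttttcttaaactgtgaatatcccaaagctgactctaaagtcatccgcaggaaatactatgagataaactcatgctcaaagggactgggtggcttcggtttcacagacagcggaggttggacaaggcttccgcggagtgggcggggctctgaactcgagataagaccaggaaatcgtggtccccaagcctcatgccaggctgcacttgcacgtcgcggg
Ctla4: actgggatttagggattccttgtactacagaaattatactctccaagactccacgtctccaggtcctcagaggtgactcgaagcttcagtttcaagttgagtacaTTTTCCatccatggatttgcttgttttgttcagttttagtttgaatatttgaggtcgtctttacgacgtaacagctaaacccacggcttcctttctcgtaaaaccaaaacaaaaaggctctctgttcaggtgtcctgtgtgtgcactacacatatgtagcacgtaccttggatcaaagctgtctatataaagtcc
The first 3 motifs had no match in the 6 member windows, and were found in 3.44%, 8.3% and 1.63% of the 32851 promoter windows of the same length. The NFAT core matched in Ctla4, where it read TTTTCC on the strand shown, 145 to 140 bases before the start, and in Tigit, and was present in 23.4% of all windows. A match describes letters only, and a window without these letters says nothing of a factor.

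In the untreated NOD glands Cd86 and Cd274 rose over the ICR glands, and none of the 10 genes fell. This contrast sets an autoimmune strain beside an outbred stock, both untreated. Cd86 rose to 3.90 ± 0.619 CPM in the model group, against 1.67 ± 0.297 CPM in the control group (SD, n = 5 each), and Cd274 rose to 3.51 ± 1.67 CPM, against 1.21 ± 0.331 CPM. These 2 of 10 members passed the edgeR quasi-likelihood test with Benjamini-Hochberg adjustment under 0.05, while 5.07% of all 18136 genes passed, 2.57% being higher and 2.5% lower. The other 8 members also had fold changes above 0, as had 53.3% of all genes, but did not pass. An unadjusted p under 0.05 was reached by 6 of 10 members, beside 21.9% of all genes. The median log2 fold change of the 10 was 1.5, beside 0.03 over all genes. In whole-tissue samples, a change in the number of cells of a type and one in RNA per cell cannot be told apart.

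Cd86 separated the untreated NOD from the ICR glands, library by library. It stood at 4.57, 3.62, 3.33, 3.42 and 4.57 CPM in model 1 to 5, and at 1.48, 1.78, 1.31, 2.08 and 1.71 CPM in control 1 to 5. The lowest model library lay above the highest control library, and control 2, rich in T cell transcripts, lay below control 4. The log2 fold change was 1.22 ± 0.21 (SE, edgeR adjusted p = 0.00441). Cd274 stood at 6.12, 2.48, 3.18, 1.80 and 3.96 CPM in model 1 to 5 and at 1.43, 1.57, 0.936, 0.788 and 1.32 CPM in control 1 to 5. The groups did not overlap either, with model 1 the highest and model 4 close to the control range. Its log2 fold change was 1.54 ± 0.31 (SE, edgeR adjusted p = 0.0114). Groups that do not overlap in this direction occurred in 3.05% of all genes and in 3 of the members. Both calls were kept when each of the 15 libraries was left out in turn. Without control 2, model 1, model 5 and SJQYD 3 together, a choice made after the data were seen, the log2 fold changes were 1.06 and 1.15 with edgeR adjusted p = 0.0528 and 0.0647, and over all alternatives the adjusted p ran from 6.92e-06 to 0.0916 for Cd86 and from 0.000231 to 0.205 for Cd274.

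Cd80, the other ligand of Cd28, ranged from 0.264 to 0.661 CPM in the model group and from 0 to 0.432 CPM in the control group, with overlapping groups, and its log2 fold change of 1.22 had a 95% interval from -0.34 to 2.78 (edgeR adjusted p = 0.353). Control 1 had no Cd80 count, and control 2 and control 5 lay within the model range.

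**Figure D1:**
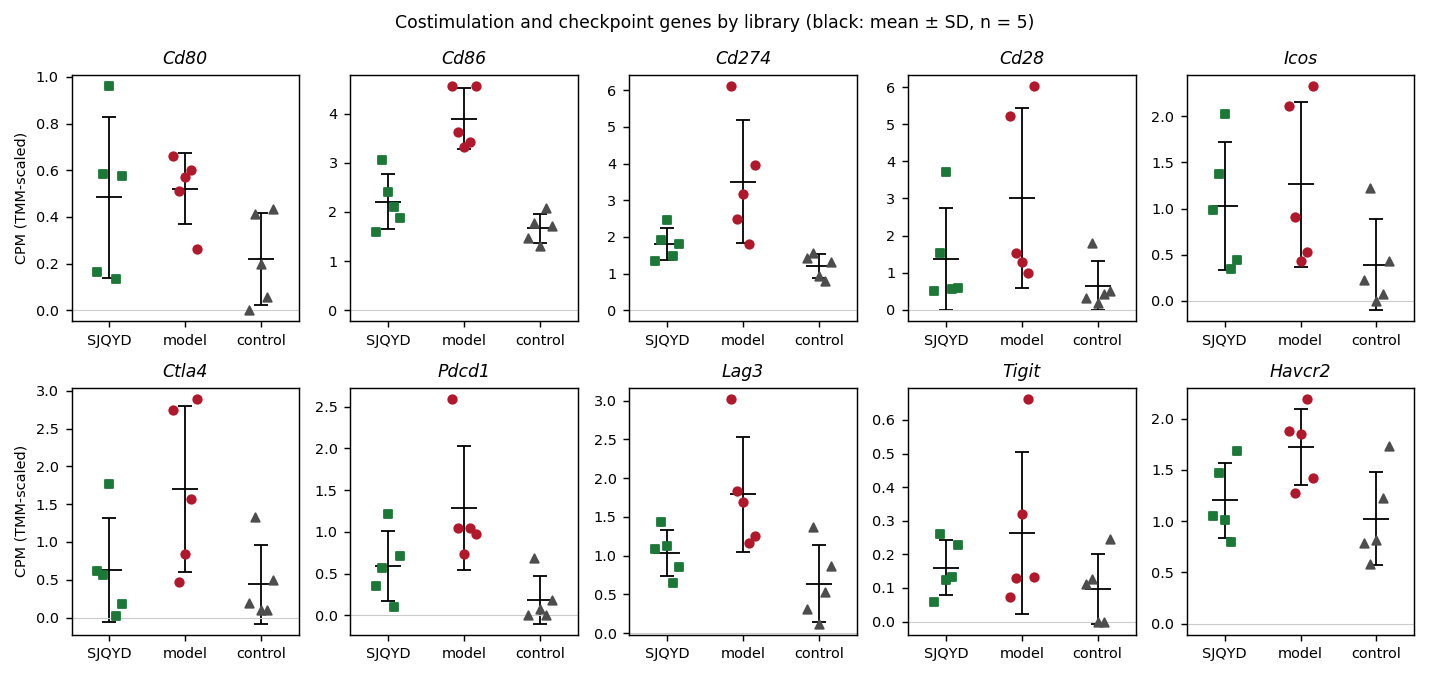
CPM of the 10 genes (vertical axes, TMM-scaled, linear) in the 5 libraries of the SJQYD, model and control groups, with black bars for the mean ± SD. Cd86 in the model group, at 3.33 to 4.57 CPM, lies above all SJQYD and all control libraries, while Cd28, Icos and Ctla4 have 1 or a few high libraries in each group.

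None of the 7 receptors passed the test between model and control glands. Pdcd1, whose product PD-1 restrains activated T cells, stood at 2.59, 1.05, 0.739, 1.05 and 0.974 CPM in model 1 to 5, and at 0, 0.684, 0.0739, 0 and 0.185 CPM in control 1 to 5. The groups did not overlap, with control 2 just below model 3, but the test did not pass (log2 fold change 2.7 ± 0.91 SE, edgeR adjusted p = 0.0968). Lag3, an inhibitory receptor that binds MHC class II, ranged from 1.16 to 3.02 CPM in the model group and from 0.123 to 1.37 CPM in the control group, where control 2 was the highest and overlapped the model range (log2 fold change 1.47 ± 0.48 SE, edgeR adjusted p = 0.0816).

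Cd28 stood at 5.23, 1.52, 1.3, 0.986 and 6.04 CPM in model 1 to 5, and at 0.308, 1.80, 0.172, 0.432 and 0.514 CPM in control 1 to 5. Model 1 and model 5 stood well above the other model libraries, and control 2 exceeded model 2, 3 and 4. Its log2 fold change was 2.2 ± 0.77 (SE, edgeR adjusted p = 0.111). Ctla4 ranged from 0.467 to 2.89 CPM in the model group and from 0.0939 to 1.33 CPM in the control group (log2 fold change 1.92 ± 0.91 SE, edgeR adjusted p = 0.233). Icos, a receptor that sustains helper T cells in germinal centres, ranged from 0.432 to 2.33 CPM in the model group and from 0 to 1.22 CPM in the control group (log2 fold change 1.66 ± 0.85 SE, edgeR adjusted p = 0.271). In both genes model 1 and model 5 were highest in their group and control 2 highest in its own.

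Havcr2, which encodes TIM-3 of exhausted T cells and of myeloid cells, ranged from 1.27 to 2.19 CPM in the model group and from 0.576 to 1.73 CPM in the control group. Here control 2 was the lowest control library, whereas it was the highest in Cd28, Icos, Ctla4, Pdcd1 and Lag3. The log2 fold change was 0.75 with a 95% interval from 0.08 to 1.41 (edgeR adjusted p = 0.174). Tigit, an inhibitory receptor for the poliovirus receptor family, was near the floor, with 0.0719 to 0.662 CPM in the model group and 0 to 0.247 CPM in the control group (edgeR adjusted p = 0.4).

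The number of receptors called differed between fits. Without control 2, edgeR called 5 of 10 members in the comparison of model with control, adding Cd28 (log2 fold change 3.05, edgeR adjusted p = 0.0246), Pdcd1 (4.22, adjusted p = 0.0106) and Lag3 (1.94, adjusted p = 0.0173). DESeq2 on all 15 libraries also called 5, with the same 3 receptors at adjusted p = 0.0173, 0.0193 and 0.028. Without control 2, model 1, model 5 and SJQYD 3 together, edgeR called 0 of the 10. The number of all genes called without control 2 alone was 1799, against 920 with it. DESeq2 called 1779 of all genes, and edgeR without the 4 libraries called 568.

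In NOD glands of mice given SJQYD, Cd86 fell relative to untreated NOD glands, and the other 9 members did not pass the test. This comparison stays within 1 strain and asks for differences with treatment. Cd86 fell to 2.20 ± 0.561 CPM in the SJQYD group, against 3.90 ± 0.619 CPM in the model group (SD, n = 5 each). This was 1 of 10 members called by edgeR, while 0.838% of all genes were called in the downward direction. The log2 fold changes of all 10 lay below 0, where 46.8% of all genes lay above it, with a median of -0.81 beside -0.03 over all genes. An unadjusted p under 0.05 was reached by 2 of 10, beside 16.2% of all genes. This comparison shares the model libraries with the one before, so that the opposite signs are not independent.

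Cd86 stood at 1.60, 3.06, 2.41, 2.10 and 1.87 CPM in SJQYD 1 to 5, below the 3.33 to 4.57 CPM of the model libraries. The highest SJQYD library lay just under the lowest model library, and lack of overlap in this direction occurred in 2.29% of all genes. The log2 fold change was -0.83 ± 0.21 (SE, edgeR adjusted p = 0.0398). The call was close to the threshold and was lost without any one of model 1, 2, 3 and 5 or SJQYD 1, 3, 4 and 5, with the fold change between -0.88 and -0.71 and edgeR adjusted p between 0.0544 and 0.107. With the replicate number as a block it was also lost (-0.84, edgeR adjusted p = 0.0763), and 9 of 25 alternatives kept it, with adjusted p from 0.00463 to 0.369.

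Cd274 stood at 1.35, 1.91, 2.47, 1.49 and 1.80 CPM in SJQYD 1 to 5, against 1.80 to 6.12 CPM in the model group. Model 4 lay within the SJQYD range, while the other model libraries lay above it, model 2 only just at 2.48 CPM. The log2 fold change was -0.96 ± 0.31 (SE, edgeR adjusted p = 0.109), and DESeq2 placed it just past the threshold (adjusted p = 0.0448), as did edgeR without model 4 (adjusted p = 0.0497), with a range of 0.0448 to 0.518 over all alternatives. For Cd80 the log2 fold change of -0.11 had a 95% interval from -1.62 to 1.4, and its sign turned with the libraries left out. Cd80 was highest in SJQYD 3, at 0.962 CPM.

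Among the receptors, SJQYD 3 was the highest library of its group in Cd28, Ctla4, Icos and Pdcd1. Cd28 stood at 0.494, 1.54, 3.71, 0.547 and 0.576 CPM in SJQYD 1 to 5, a span that overlapped the model range of 0.986 to 6.04 CPM (log2 fold change -1.13, 95% interval -2.72 to 0.45, edgeR adjusted p = 0.501). Ctla4 ranged from 0.0189 to 1.77 CPM in the SJQYD group, and a single read count lay behind the lowest value, in SJQYD 4 (log2 fold change -1.42, 95% interval -3.31 to 0.46, edgeR adjusted p = 0.473). Pdcd1 ranged from 0.0944 to 1.21 CPM, Icos from 0.34 to 2.02 CPM and Lag3 from 0.642 to 1.43 CPM in the SJQYD group. All 3 overlapped the model group, with log2 fold changes of -1.12, -0.29 and -0.79 and edgeR adjusted p of 0.575, 0.914 and 0.436. Havcr2 (0.793 to 1.68 CPM in the SJQYD group) and Tigit (0.0581 to 0.26 CPM) also overlapped it, with log2 fold changes of -0.52 and -0.73.

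Set against the ICR glands, the SJQYD glands showed no member past the edgeR test, where 11.1% of all genes were called and 5.22% were called higher. None of the 10 had an unadjusted p under 0.05, which 26.6% of all genes had, and DESeq2 also called 0. No member was without overlap in the higher direction, where 5.07% of all genes were. All 10 log2 fold changes were above 0, as were 53.3% over all genes, with a median of 0.68 beside 0.04 over all genes. Cd86 had a log2 fold change of 0.39 (95% interval -0.05 to 0.83, edgeR adjusted p = 0.242) and Cd274 of 0.58 (95% interval -0.08 to 1.23, edgeR adjusted p = 0.25). Both intervals include 0. Without control 2, Pdcd1 was called (log2 fold change 3.11, edgeR adjusted p = 0.0299), within a range of 0.0299 to 0.501 over all alternatives. With both NOD groups set against the ICR glands, Cd86 and Cd274 rose (log2 fold changes 0.81 ± 0.19 and 1.06 ± 0.28 SE, edgeR adjusted p = 0.0124 and 0.0247), where 4.31% of all genes rose. All 10 log2 fold changes were above 0 and 5 had an unadjusted p under 0.05, beside 53.9% and 26.2% of all genes, while no member and 1.13% of all genes separated both NOD groups from the ICR glands. The call of Cd274 was lost without control 3, 4 or 5 (edgeR adjusted p = 0.0658, 0.0669 and 0.0531), and without control 2 the number of members called was 6, with Cd28, Pdcd1, Icos and Lag3 added. Of all genes 2657 were called for both NOD groups without control 2, against 1829 with it. This comparison shares its libraries with the others.

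**Figure D2:**
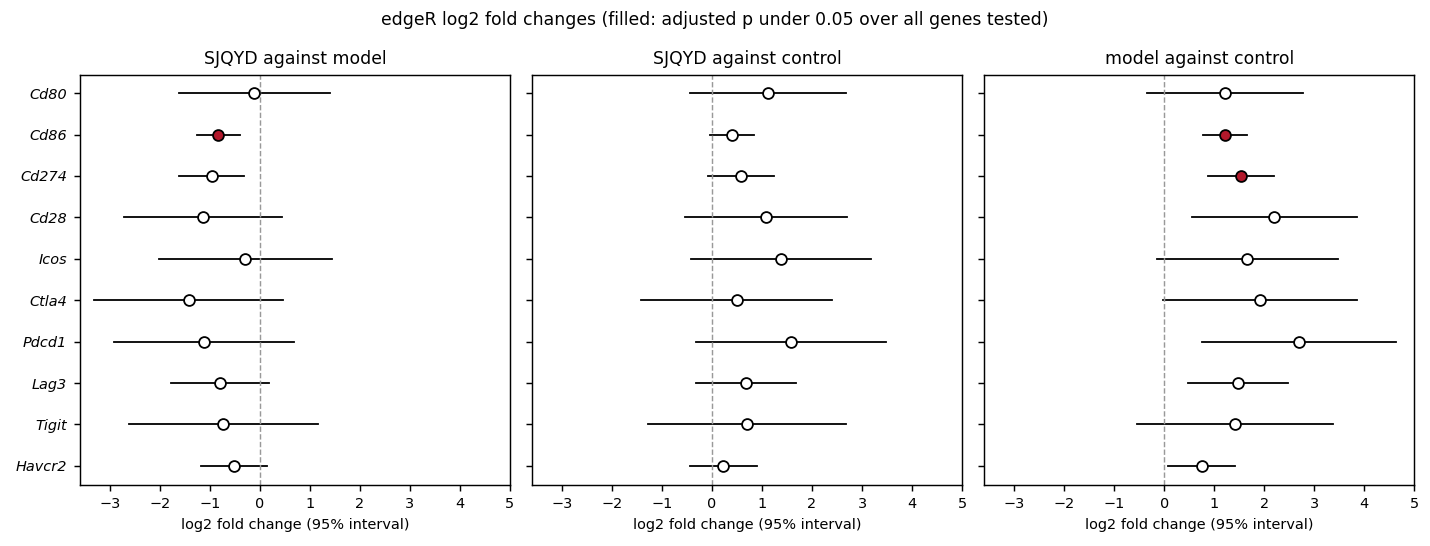
Log2 fold changes of the 10 genes with 95% intervals in 3 comparisons, with filled points for an edgeR adjusted p under 0.05 over all genes tested. Cd86 is filled in the comparisons of SJQYD with model (-0.83) and model with control (1.22) and Cd274 in that of model with control (1.54), and the intervals of Cd28, Icos, Ctla4, Pdcd1 and Tigit are the widest.

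Most members, ligands included, were higher in libraries with more T cell receptor transcripts. Over the 15 libraries the Spearman rho with the mean log2 CPM of 4 CD3 chains was 0.957 for Cd28, 0.932 for Icos, 0.889 for Cd274, 0.836 for Ctla4, 0.835 for Pdcd1, 0.821 for Lag3, 0.721 for Cd86 and 0.643 for Cd80. It was 0.246 for Havcr2 and 0.206 for Tigit. With the lymph node list rho was 0.911 for Cd28, 0.889 for Icos, 0.879 for Ctla4 and 0.861 for Cd274, and Havcr2 had a rho of 0.775 with the macrophage list. A list of genes induced by interferon gamma gave a higher rho than the CD3 chains for all 3 ligands, at 0.914 for Cd274, 0.896 for Cd86 and 0.721 for Cd80. It was also higher for Lag3 (0.907), Pdcd1 (0.874), Havcr2 (0.675) and Tigit (0.461), and lower for Cd28 (0.829), Icos (0.743) and Ctla4 (0.675). Lists of B cell and dendritic cell genes gave 0.657 and 0.625 for Cd80, 0.646 and 0.711 for Cd86, and 0.832 each for Cd274. Other lists than that of interferon gamma thus also exceeded the CD3 chains for some members. Examples were Lag3 with the B cell list (0.886) and Pdcd1 with the dendritic cell list (0.87). All these values rest on the same libraries. The CD3 chains Cd3d, Cd3e, Cd3g and Cd247 summed to 5.17, 12.7, 42.6, 3.59 and 7.09 CPM in SJQYD 1 to 5, to 66, 11.7, 11.3, 7.73 and 65.3 CPM in model 1 to 5, and to 4.09, 28, 1.28, 2.05 and 3.13 CPM in control 1 to 5. The 4 libraries with the highest sums, SJQYD 3, model 1, model 5 and control 2, were those rich in Glycam1 and Ccl21a, and they also had the 4 highest values of Cd28. Their part in the results was not tested beyond the fits given here. Cd28 per CD3 sum lay at 0.0813 to 0.153 in the SJQYD group, at 0.0793 to 0.13 in the model group and at 0.0643 to 0.211 in the control group. The level of Cd28 varied from 0.172 to 6.04 CPM and its ratio to the CD3 chains from 0.0643 to 0.211, with ranges that overlapped between groups. The ratio of Havcr2 overlapped too, at 0.0237 to 0.236 in the SJQYD group, 0.0217 to 0.283 in the model group and 0.0206 to 0.635 in the control group. Overlap therefore does not tell genes that follow the CD3 chains from those that do not. For Cd86 the ratio lay at 0.0564 to 0.584 in the SJQYD group, at 0.0693 to 0.442 in the model group and at 0.0636 to 1.02 in the control group. The 16 genes of the T cell list summed to 18 to 218 CPM in the SJQYD group, 39.2 to 330 CPM in the model group and 8.37 to 152 CPM in the control group, and none was at 0 in any library. None of the 16 passed the edgeR test in any comparison, and at an unadjusted p under 0.05 there were 3 of 16 for model against control, where 21.9% of all genes had one. For the same comparison, 5 of 9 follicular helper and exhausted T cell genes tested had such a p, and none was called. Of 7 regulatory T cell genes tested 3 had one, and 1 was called lower, beside 2.5% of all genes.

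**Figure D3:**
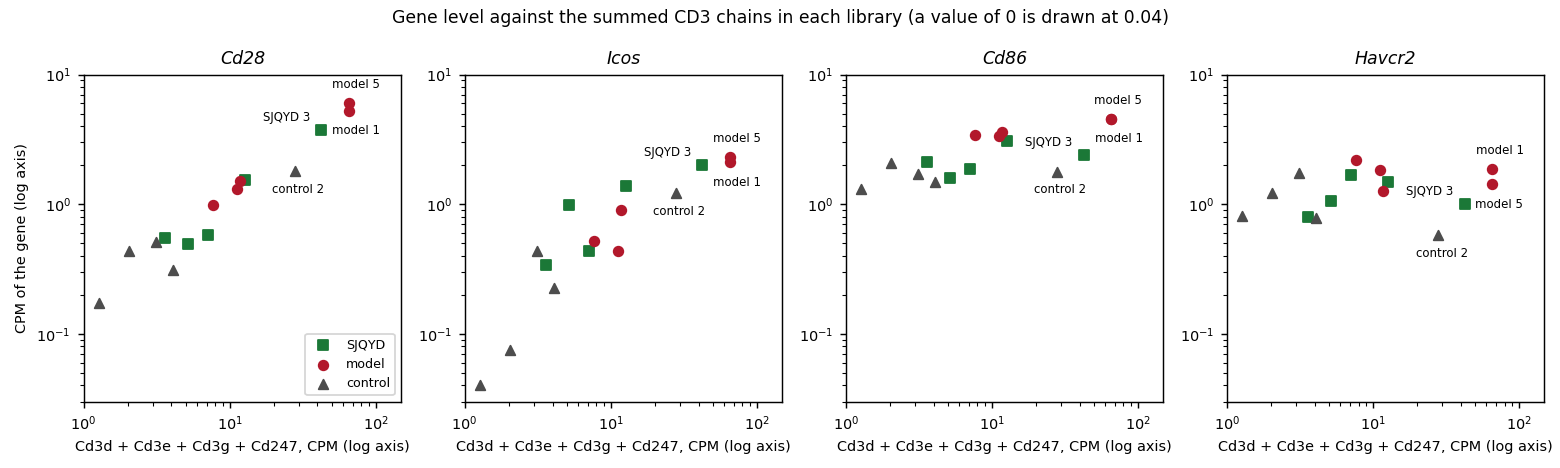
Level of Cd28, Icos, Cd86 and Havcr2 (CPM, log axis) against the summed level of 4 CD3 chains (CPM, log axis) in each library, with the 4 libraries rich in lymph node stroma transcripts named. Cd28, Icos and, over a narrower range of 1.31 to 4.57 CPM, Cd86 are higher at higher CD3 sums (Spearman rho 0.957, 0.932 and 0.721), while Havcr2 lies between 0.576 and 2.19 CPM (rho 0.246).

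A fit with the CD3 score, the mean log2 CPM of these 4 chains, as a covariate made no call among the members in any comparison. In this fit the log2 fold change of model against control was 0.95 for Cd86 (edgeR adjusted p = 0.0916) and 0.82 for Cd274 (edgeR adjusted p = 0.205), against 1.22 and 1.54 without the covariate. For Cd28 it was 0.34 and for Icos 0.20, against 2.2 and 1.66. For SJQYD against model, Cd86 stood at -0.69 (edgeR adjusted p = 0.0935). The number of all genes called for model against control was 150 in this fit, against 920. For SJQYD against model it was 462, against 498, and for SJQYD against control 1524, against 2017. With both NOD groups set against control it was 600, against 1829.

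**Figure D4:**
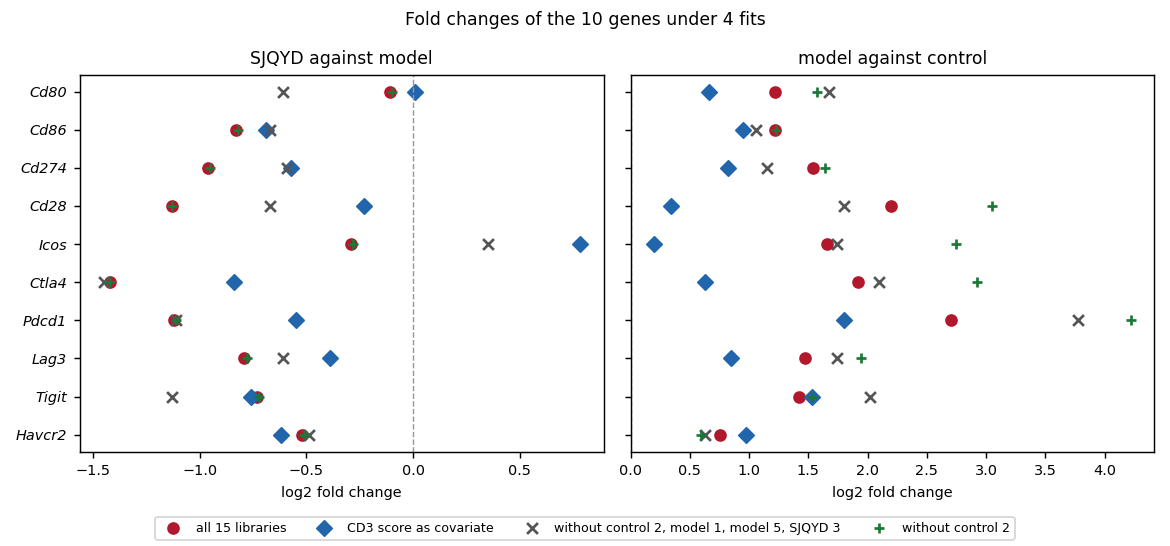
Log2 fold changes of the 10 genes for SJQYD against model (left) and model against control (right) in the fit of all 15 libraries, with the CD3 score as covariate, and without the named libraries. For model against control the fit with the covariate gives 0.34 for Cd28, 0.20 for Icos and 0.95 for Cd86. Cd86 lies between 0.95 and 1.23 in the 4 fits. It is not called with the covariate (edgeR adjusted p = 0.0916) or without the 4 libraries rich in lymph node transcripts (edgeR adjusted p = 0.0528).

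Markers of cells that carry the ligands were measured beside them. The 12 B cell genes summed to 16.2 to 77.9 CPM in the SJQYD group, 59.1 to 130 CPM in the model group and 0.936 to 113 CPM in the control group, where control 3 had 8 of the 12 at 0. The 10 dendritic cell genes summed to 10.5 to 28.1 CPM in the SJQYD group, 12.3 to 49.4 CPM in the model group and 6.73 to 22.2 CPM in the control group, with at most 1 at 0, and 1 of 10, Batf3, a transcription factor of dendritic cells, rose in model against control, beside 2.57% of all genes (log2 fold change 1.95, edgeR adjusted p = 0.00838). The 10 macrophage genes summed to 78.7 to 102 CPM in the SJQYD group, 113 to 144 CPM in the model group and 72.7 to 136 CPM in the control group, with none at 0. Of the macrophage genes 1 of 10 rose in model against control, where 2.57% of all genes did, namely Fcgr1 (log2 fold change 1.01, edgeR adjusted p = 0.0161). In SJQYD against model 2 of 10 fell, where 0.838% of all genes did, the complement gene C1qa (-0.61, edgeR adjusted p = 0.0489) and the integrin Itgam (-1.41, edgeR adjusted p = 0.0138). The part of these cells in the levels of Cd86 and Cd274 was not tested. The 12 genes induced by interferon gamma summed to 119 to 216 CPM in the SJQYD group, 218 to 322 CPM in the model group and 77.9 to 159 CPM in the control group. Of these, 6 of 12 rose in model against control, beside 2.57% of all genes, and 1 of 12 fell in SJQYD against model, beside 0.838% of all genes, which was Irf1, a transcription factor of the interferon response (log2 fold change -0.67, edgeR adjusted p = 0.0112). In SJQYD against model, 8 of 10 macrophage and 9 of 12 interferon gamma genes had an unadjusted edgeR p under 0.05, beside 16.2% of all genes. Of 8 natural killer cell genes 5 had one, of the dendritic cell genes 1 of 10, and of the B cell genes 0 of 12. None of these 8 natural killer cell genes was called. Groups that did not overlap in the lower direction occurred in 5 of 10 macrophage and 3 of 12 interferon gamma genes. They also occurred in 1 of 8 natural killer cell, 0 of 10 dendritic cell and 1 of 12 B cell genes, beside 2.29% of all genes.

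Some markers of skeletal muscle and of the submandibular gland itself also differed between model and control glands. Of 6 skeletal muscle genes tested, 3 rose, where 2.57% of all genes did, and the 7 genes of that list found in the files summed to 21.2 to 38.6 CPM in the SJQYD group, 22 to 38.3 CPM in the model group and 11.2 to 22.4 CPM in the control group. The 3 were Tnnt3, with no count in the control group, Ryr1 and Eno3. Of 12 submandibular gland genes 2 fell, where 2.5% of all genes did, the acinar transcription factor Bhlha15 (log2 fold change -0.57, edgeR adjusted p = 0.032) and the epithelial adhesion gene Epcam (-0.63, edgeR adjusted p = 0.0478). Of 8 natural killer cell genes none was called, and 4 had an unadjusted p under 0.05, where 21.9% of all genes had one. That list summed to 3.71 to 8.2 CPM in the SJQYD group, 7.81 to 12.6 CPM in the model group and 4.06 to 9.63 CPM in the control group. The part of these tissues and cells in the members' levels was not tested.

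Per gene length, the ligand Cd86 was the most abundant member in all 3 groups and Cd80 the least. The authors' FPKM of Cd86 averaged 0.597 ± 0.176 in the SJQYD group, 1.01 ± 0.243 in the model group and 0.316 ± 0.106 in the control group (SD, n = 5 each). In the SJQYD group the order of mean FPKM after Cd86 was Lag3 (0.511), Cd274 (0.495), Havcr2 (0.439), Icos (0.318), Pdcd1 (0.3), Ctla4 (0.292), Cd28 (0.222), Tigit (0.155) and Cd80 (0.123). In the model group it was Cd274 (0.949), Lag3 (0.837), Ctla4 (0.683), Pdcd1 (0.652), Havcr2 (0.597), Cd28 (0.468), Icos (0.346), Tigit (0.25) and Cd80 (0.134). In the control group it was Havcr2 (0.253), Cd274 (0.226), Lag3 (0.223), Ctla4 (0.143), Icos (0.087), Cd28 (0.0799), Pdcd1 (0.0773), Tigit (0.069) and Cd80 (0.0417). The ranges over libraries of each pair of neighbours in these orders overlapped, so single steps in the order are within the spread. FPKM follows the total count, of which the secretory transcript Mucl2 held 15.5% to 53.8%.

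The genes closest to each member across the 15 libraries were taken as the 3 with the highest Spearman rho among 14401 named genes. As they were picked for their likeness, no p is given. Cd28 was followed most closely by Gimap6, a GTPase of lymphocytes (Spearman rho 0.993, Pearson r 0.959), Cd247, the CD3 zeta chain (rho 0.989, r 0.978), and Myo1g (rho 0.975, r 0.951). Icos was closest to Pik3cd, Zap70, the kinase that binds the T cell receptor complex, and Skap1 (rho 0.975 to 0.979). Ctla4 was closest to Trim30a, Shisa5 and Klhl6 (rho 0.932 to 0.968), and Pdcd1 to Dok1, Tnfrsf13b and Cmah (0.932 to 0.936). Lag3 was closest to Pou2f2, Ciita, the transactivator of MHC class II genes, and Il10ra (0.95 to 0.964). Cd274 was closest to Fyb, Il2rb and Nfkbie, an inhibitor of NF-kB (0.954 to 0.964), and Cd86 to Vim, Ifi204 and Klra10 (0.91 to 0.932). Cd80 was closest to H2-Oa, S100a4 and Cap2 (0.858 to 0.886). Havcr2 was closest to Mx1, Clec10a, a lectin of macrophages and dendritic cells, and Rnf227 (0.843 to 0.868), and Tigit to Ppargc1a, Mcm8 and Mt2 (0.779 to 0.861). Among the members themselves, Spearman rho ran from 0.161 for Icos and Tigit to 0.904 for Cd28 and Icos over 45 pairs, with a median of 0.643. These values rest on libraries of 3 groups and share the 4 libraries rich in T cell transcripts.

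Of 37 further genes of costimulation and checkpoint signalling, 32 passed the filter on low counts, and Cd40lg, Cd70, Pdcd1lg2, Tnfsf18 and Tnfsf4 did not. In the model glands 2 rose over the ICR glands and 0 fell, where 2.57% of all genes rose and 2.5% fell, with a median log2 fold change of 1.15 beside 0.03 over all genes. Tnfrsf4, which encodes the costimulatory receptor OX40 of activated and regulatory T cells, stood at 4.54, 4.58, 2.61, 3.20 and 6.32 CPM in model 1 to 5 and at 0.308, 1.84, 0.69, 0.188 and 0.514 CPM in control 1 to 5. The groups did not overlap, and model 1 and model 2 were nearly equal although their CD3 sums were 66 and 11.7 CPM. The log2 fold change was 2.57 ± 0.46 (SE, edgeR adjusted p = 0.00615). Cd48, a ligand of the lymphocyte receptors Cd2 and Cd244a, ranged from 1.91 to 8.2 CPM in the model group and from 0.563 to 1.87 CPM in the control group, at the edge of the threshold (log2 fold change 1.59, edgeR adjusted p = 0.0496). Cd200 and Ly9 were next by p and did not pass (log2 fold changes 0.75 and 1.79, edgeR adjusted p = 0.0639 and 0.0664). Without control 2, 12 of the list and 1799 of all genes were called. Without model 4 the numbers were 3 and 1304, against 2 and 920 with all 15 libraries. The list count was 1 without any one of control 1, 3, 4 and 5, model 1, 2, 3 and 5 and SJQYD 2, 4 and 5. Those fits called 354 to 814 of all genes.

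In the SJQYD glands 1 gene of this list rose over the model glands, Pvr, a ligand of Tigit and of the activating receptor Cd226, where 1.91% of all genes rose. It stood at 20.3, 14.4, 15.5, 17.5 and 19.1 CPM in SJQYD 1 to 5, at 8.01, 8.72, 11.2, 11.1 and 7.69 CPM in model 1 to 5 and at 7.81, 12.1, 5.37, 9.78 and 11.1 CPM in control 1 to 5. All SJQYD libraries lay above all others, and 3.21% of all genes lay so above the model group. The log2 fold change against the model group was 0.89 ± 0.19 (SE, edgeR adjusted p = 0.0162) and against the control group 0.91 ± 0.19 (SE, edgeR adjusted p = 0.00669). The call against the model group was lost without the parotid-rich libraries, without the 4 libraries rich in lymph node transcripts and with limma on FPKM, where 0 genes of the list were called. Of all genes 186 and 105 were called in the first 2 of these fits, against 498 with all libraries. With limma on log2(FPKM + 1) and log2(FPKM + 0.1) the numbers were 68 and 57. The median of the 32 genes for SJQYD against model was -0.77, beside -0.03 over all genes, and Cd48, Lgals9, a ligand of TIM-3, and Vsir had log2 fold changes of -1.42, -0.86 and -0.67 without passing. For SJQYD against control, Pvr and Tnfrsf4 (log2 fold change 1.95, edgeR adjusted p = 0.0123) rose, where 5.22% of all genes rose. Ceacam1, a ligand of TIM-3 that glandular epithelium also carries, fell by 0.53 on the log2 scale (edgeR adjusted p = 0.0326), where 5.9% of all genes fell. No gene of the list was called lower without the parotid-rich libraries, without the 4 libraries rich in lymph node transcripts, with the CD3 covariate or with limma on FPKM, so the call of Ceacam1 was lost in these fits. Tnfrsf14, a ligand of the inhibitory receptor Btla, had 0.165 to 0.664 CPM in the SJQYD group and 0 in 3 of 5 control libraries, and did not pass (edgeR adjusted p = 0.123). With both NOD groups set against the ICR glands, Tnfrsf4 was the 1 gene called (log2 fold change 2.26, edgeR adjusted p = 0.00397), and Ceacam1, Ly9 and Pvr had edgeR adjusted p of 0.058, 0.088 and 0.0885. Without control 2, 5 genes of the list were called for SJQYD against control and 10 for both NOD groups. Of all genes 2626 and 2657 were then called, against 2017 and 1829 with all 15 libraries. The list count for SJQYD against control was 2 without control 1, 3 or 5 or SJQYD 1, 2 or 3. Those fits called 1240 to 1735 of all genes.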

How the data were processed

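Per the labels' protocols, poly(A) RNA of submandibular glands was made into dUTP-marked libraries with molecular identifiers and sequenced as paired reads. Tools listed in the submitters' processing notes, with no role given, are HISAT2 2.0.4 and StringTie 1.3.4d, besides cutadapt 1.9, UMI-tools, edgeR and DESeq2, and whether counting used strand is not given in the sources used here. The authors deposited whole-number gene counts for 55401 genes and FPKM values, scaled by gene length and total count, for the 32479 with a count. Small counts pile up at 4 (14040 values, against 8483 at 3), so counts are not read as molecules. No 2 libraries of a group were copies (chi-square of at least 79 per gene).

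From the counts, edgeR 4.0.16 in R 4.3.3 kept 18136 genes by its filter on expression by group, scaled them by TMM factors (0.594 to 1.85) and fitted 1 mean per group to all 15 libraries with robust quasi-likelihood, with p adjusted over all genes. A standard error is the fold change divided by the root of F. The code was tested on simulated data. Log2 CPM used a prior count of 2 for the CD3 covariate and for correlations between genes. The rho with gene lists, the 4 CD3 chains included, used log2(CPM + 0.1). Alternatives were RLE scaling, no filter, DESeq2 1.42.0, fits of 2 groups, a replicate block, limma 3.58.1 on log2(FPKM + 1) or log2(FPKM + 0.1), a CD3 covariate, and left-out libraries. The members and gene lists were chosen with earlier results of these data known. All members were named, with called list genes, or the 4 of smallest p.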

Additional observations from a re-analysis of the deposited data

Results flagged for a closer look

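In 3 of 30 groups of 5 libraries, 1 library lay far from the others of its group, with a gap to the nearest above 0.71 of the range. Chance flags about 1 in 20 such groups. Cd28 stood at 1.80 CPM in control 2, against 0.172 to 0.514 CPM in the other control libraries. Pdcd1 stood at 2.59 CPM in model 1, against 0.739 to 1.05 CPM in the other model libraries, and at 0.684 CPM in control 2, against 0 to 0.185 CPM in the other controls. Both libraries also had the highest CD3 chain sum of their group, at 66 CPM in model 1 and 28 CPM in control 2. Model 5, with a nearly equal sum of 65.3 CPM, had 0.974 CPM of Pdcd1, below the 1.05 CPM of model 2, whose sum was 11.7 CPM. The part of T cell content in these values was not tested.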

How the results depend on the processing

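Of the 10 members, edgeR called 2, 1, 0 and 2 for model against control, SJQYD against model, SJQYD against control and both NOD groups against control, and below the values follow this order of comparisons. Leaving out each library in turn gave 2 to 5, 0 to 2, 0 to 1 and 1 to 6 members, 1 to 12, 1, 2 to 5 and 1 to 10 of the further pathway genes (2, 1, 3 and 1 with all libraries), and 354 to 1799, 333 to 527, 1240 to 2626 and 983 to 2657 of all genes (920, 498, 2017 and 1829). DESeq2 called 5, 2, 0 and 4 members, 6, 2, 3 and 4 pathway genes and 1779, 1058, 2810 and 2707 of all genes. With limma on log2(FPKM + 1), members numbered 5, 0, 0 and 5, pathway genes 9, 0, 5 and 9 and all genes 1371, 68, 3397 and 4217, of which 1314, 46, 3279 and 4090 were higher, against 466, 346, 947 and 781 with edgeR. The fit of log2(FPKM + 0.1) had 2015, 37, 3998 and 5155 higher. With log2(FPKM + 0.1), members numbered 6, 0, 1 and 8, pathway genes 13, 0, 6 and 14 and all genes 2078, 57, 4126 and 5283. FPKM takes no account of the TMM factors, and the median of all genes for model against control was 0.19 and 0.41 in these fits, beside 0.03. Without the parotid-rich libraries (control 2, model 3 and SJQYD 1), members numbered 5, 0, 1 and 6, pathway genes 11, 0, 3 and 9, and all genes 1507, 186, 1964 and 2297. With the CD3 covariate members numbered 0 in each, pathway genes 2, 1, 3 and 2, and genes 150, 462, 1524 and 600. Without control 2, model 1, model 5 and SJQYD 3, a choice made after the data were seen, members numbered 0, 0, 0 and 1, pathway genes 6, 0, 4 and 8, and all genes 568, 105, 1914 and 1719. Fits of 2 groups, in which 9 members passed the filter, gave 2, 0 and 0 members in the first 3 comparisons, 1, 1 and 3 pathway genes and 466, 444 and 1794 of all genes. With no filter, members numbered 2, 0, 0 and 2, pathway genes 1, 1, 3 and 1, and all genes 665, 410, 1564 and 1414. The causes of these shifts were not tested.

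Signs turned for members that did not pass. Cd80 in SJQYD against model ran from -0.53 to 0.13 with single libraries left out (0.13 without SJQYD 1 or SJQYD 4), and was 0.16 without the parotid-rich libraries and 0.01 with the CD3 covariate, against -0.11. Icos there ran from -0.69 to 0.05 (0.05 without model 5), and was 0.78 with the covariate and 0.35 without the 4 libraries, against -0.29. Ctla4 in SJQYD against control ran from -0.37 (without SJQYD 3) to 1.5, and was -0.21 with the covariate, against 0.49. With a replicate block the members called were 2, 0, 0 and 2, beside 896, 401, 1799 and 1659 of all genes. The samples share only a number: deviations of same-numbered samples correlated between -0.226 and 0.16, and 1 of 5 samples per comparison was closest to its own number. DESeq2 gave no adjusted p for Cd80 and Tigit in SJQYD against model. Depth limits Cd80, Icos, Pdcd1 and Tigit, which stood at 0 in 1 or 2 control libraries, where a 0 allows up to 3 counts.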
